A study of Mus musculus with 8 samples.

Results

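The genes described here are 35 genes of the p53 pathway and the DNA damage response, measured in tumor-infiltrating CD8+ T cells with and without the histone demethylase LSD1. They were taken by symbol from a table of raw counts for 55335 genes, and all 35 symbols were found once each. The list holds the tumor suppressor gene *Trp53* with its regulators, genes that p53 is known to switch on, the kinases that signal DNA damage and genes of DNA break repair. Of these, 34 passed the filter on low counts, and *Eda2r*, a receptor gene, had 0 counts in every sample, which allows a level of up to 0.099 to 0.257 CPM, read counts scaled to the library total (3 counts per library, counting error only).

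Live tumor-infiltrating lymphocytes (TILs) gated as CD45.2+TCRβ+CD8+CD44+PD-1+ made up 8 samples, 4 of them wildtype (WT, genotype Lsd1f/f) and 4 lacking LSD1 in T cells (KO, genotype Cd4-Cre+Lsd1f/f). They came from C57BL/6 mice, 6 to 10 weeks old, bearing implanted MC38 tumors. MC38 is a mouse colon carcinoma line, and both groups carried the floxed Lsd1 alleles. Cd4-Cre acts in developing T cells of both the CD4 and the CD8 lineage, so deletion was not limited to CD8+ T cells. Each WT sample pooled cells of 2 mice, each KO sample came from 1 mouse, and a sample held about 10000 to 20000 sorted cells. Pooling and genotype therefore cannot be told apart. The protocol gives day 18 after implantation and the design text day 14. WT samples carry the names S1, S2, S3 and S4 here, and KO samples the names S5, S6, S7 and S8, without replicate numbers.

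p53 is a transcription factor that is kept low by MDM2 and MDM4 and stabilized when the ATM and ATR kinases sense broken or stalled DNA. Its targets stop the cell cycle, restrain growth signaling, repair DNA or start cell death, and *Mdm2* is itself a target, which closes a feedback loop. Activated CD8+ T cells divide fast and so use the checkpoint and repair genes heavily, and LSD1 can act on the p53 protein as well as on histones.

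Promoter windows were searched for the letters that p53 is known to bind. RefSeq windows on GRCm38.p6, from 250 bases before to 50 bases after a start, were matched for 27 of the 35 genes in 33 windows. The others were *Ddb2*, *Tnfrsf10b*, *Rrm2b*, *H2afx*, *Zmat3*, *Perp*, *Xpc* and *Trp53inp1*. The p53 half-site consensus, a 10-letter palindromic motif searched without a mismatch, was found in 9 of the 33 windows (27.3%) and in 8.36% of all 32851 windows. Many of the 35 genes are listed because they are known p53 targets, so a higher share is no independent result. The 9 windows belong to 8 genes, and both windows of *Aen* hold the same site. A match is a description of the letters in a window and not a site shown to be bound. Shown are the matches in 5 well-known genes of the pathway, with 10 bases on each side and the half-site in capitals. *Cdkn1a* holds 2 of them, at chr17:29090896-29090925 and chr17:29090918-29090947 (plus strand). The other matches shown are in *Mdm2* (chr10:117710925-117710954, minus strand), *Ccng1* (chr11:40755452-40755481, minus strand), *Trp53* (chr11:69580274-69580303, plus strand) and *Aen* (chr7:78895927-78895956, plus strand).
Cdkn1a, first: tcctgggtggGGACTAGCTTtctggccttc
Cdkn1a, second: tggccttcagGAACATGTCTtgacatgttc
Mdm2: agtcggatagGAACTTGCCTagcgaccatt
Ccng1: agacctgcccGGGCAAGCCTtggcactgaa
Trp53: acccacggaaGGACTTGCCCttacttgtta
Aen: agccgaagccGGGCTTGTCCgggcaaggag

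In *Cdkn1a* the second half-site overlaps a pair of CATG cores set 6 bases apart, the spacing of a full p53 element (CATG, any 6 bases, CATG, which reads alike on both strands). This pattern was in 1 of the 33 windows and in 0.712% of all windows, and is shown in capitals at chr17:29090921-29090954.
Cdkn1a pair: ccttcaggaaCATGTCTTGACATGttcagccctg

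Of the 34 genes tested, 1 was higher and 1 was lower in KO than in WT TILs at the thresholds of the study, more than 1.5-fold with an adjusted p below 0.01. *Psrc1*, which encodes a microtubule-binding protein of the mitotic spindle, rose 2.63-fold, and *Plk2*, which encodes a stress-induced polo-like kinase, fell to 0.56 of its WT level. At an adjusted p under 0.05 without a fold threshold, *Sesn3*, *Zmat3* and *Atm* were higher too, each by less than 1.4-fold. *Trp53* itself, *Mdm4*, *Cdkn1a* and the checkpoint kinase genes *Atr*, *Chek1* and *Chek2* did not pass. Values are CPM, the depth-scaled counts that edgeR gives with TMM factors, and adjusted p are from edgeR's quasi-likelihood test with Benjamini-Hochberg adjustment over all 15378 genes tested.

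These counts lay close to those of all genes. Among all genes tested, 4.9% passed both thresholds, 2.91% higher and 1.99% lower, against 5.88% of the 34. At an adjusted p under 0.05, 11.3% of all genes passed, 6.31% higher and 4.98% lower, against 14.7% of the 34, with 4 higher and 1 lower. The median log2 fold change was 0.07 over the 34 genes and -0.01 over all genes. A positive value was found in 7479 of all 15378 genes and in 21 of the 34. In 6 genes (17.6%) the 4 KO values all exceeded the 4 WT values, and in 0 genes did they all lie below, against 8.99% and 8.27% of all genes (17.3% in either direction). The 6 were *Mdm2*, *Plk3*, *Psrc1*, *Sesn3*, *Zmat3* and *Atm*.

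For many of the 34, the data set a bound on the difference. The 95% interval of the fold change, taken from the standard error of the quasi-likelihood fit, lay within 1.5-fold in both directions for 17 genes (50%), against 30.9% of all genes tested. These shares were not matched for read counts, and genes of the set with few counts had wide intervals. The higher share therefore does not show that the set changed less than other genes. Among the 17 were *Trp53*, *Mdm2*, *Mdm4*, *Cdkn1a*, *Cdkn1b*, *Ccng1*, *Atm*, *Atr*, *Brca1* and *Parp1*. Standard errors ran from 0.09 log2 units for *Sesn3*, the gene with the most counts (36475 over the 8 samples), to 0.52 for *Tnfrsf10b* (835 counts). The intervals were wide for *Phlda3*, *Tnfrsf10b* and *Chek2*, which had 456, 835 and 703 counts over the 8 samples, and their upper ends reached 3.47-, 2.92- and 1.95-fold.

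**Figure D1:**
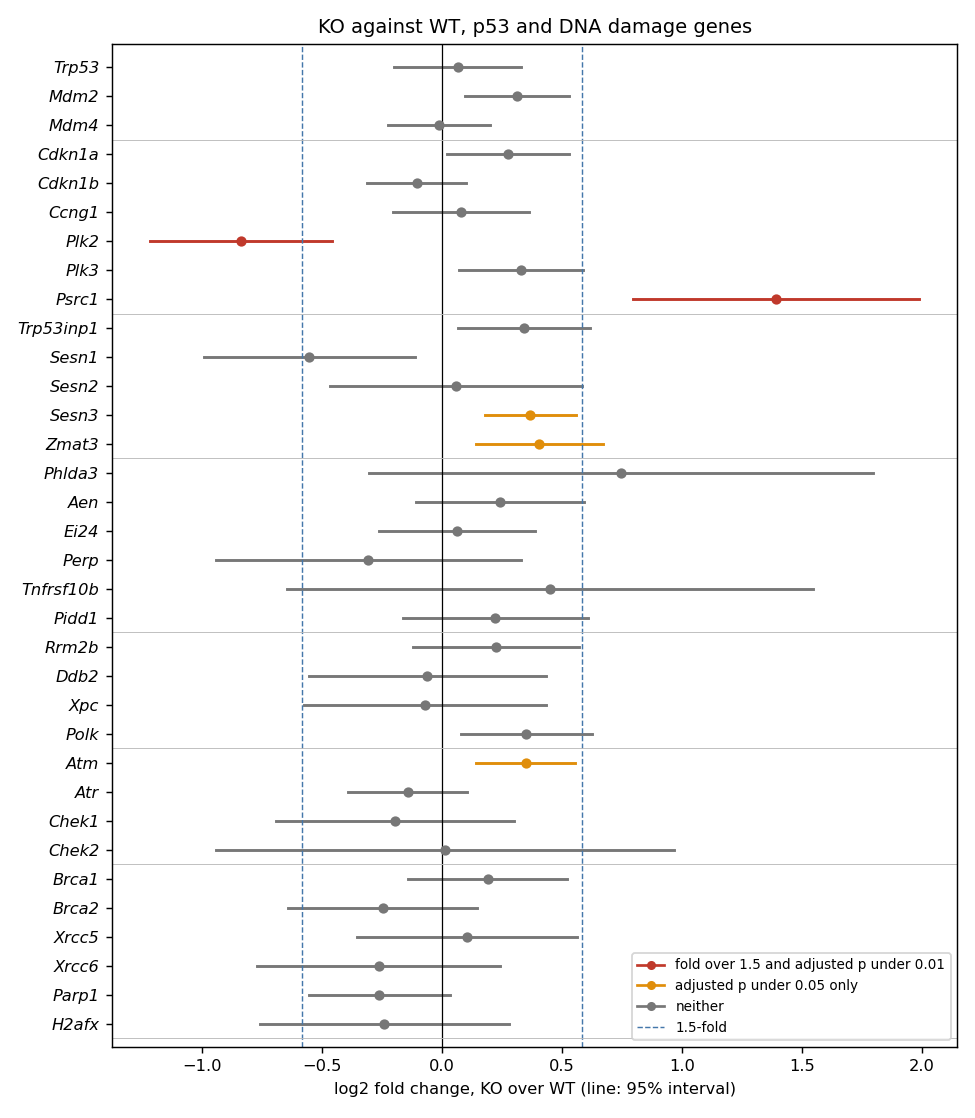
Log2 fold change of KO over WT for the 34 tested genes (point) with its 95% interval (line), grouped by role between gray lines, with 1.5-fold marked by dashed lines. *Psrc1* and *Plk2* pass both thresholds, *Sesn3*, *Zmat3* and *Atm* pass an adjusted p of 0.05 only, and the intervals of 17 genes lie between the dashed lines.

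**Figure D2:**
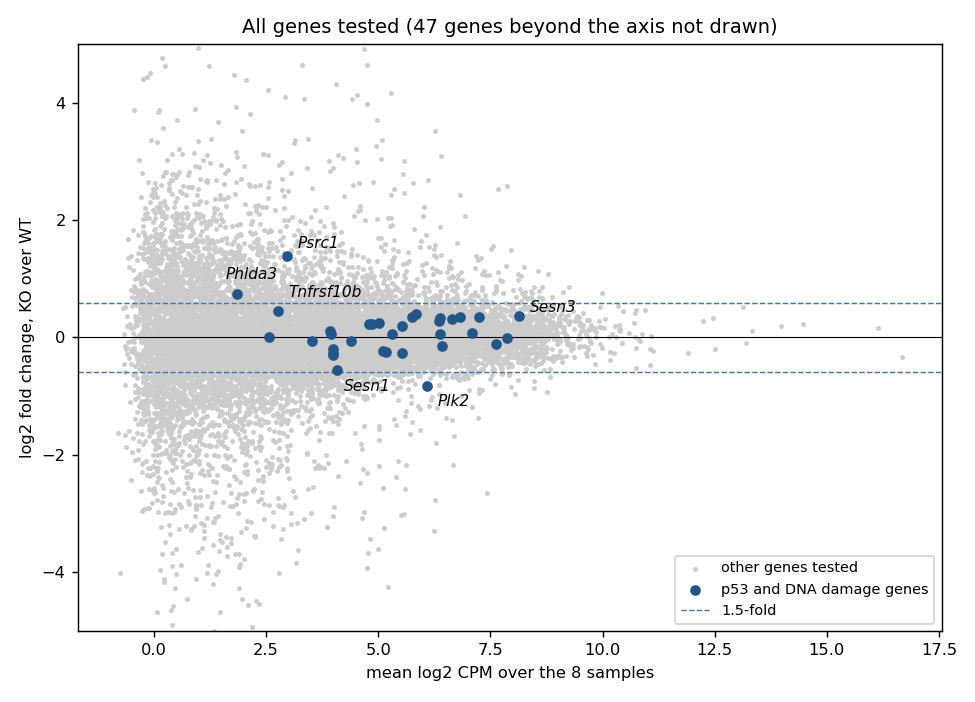
Log2 fold change of KO over WT against mean log2 CPM for the 15378 genes tested, with the 34 p53 and DNA damage genes as dark points and 6 of them named. 47 genes beyond 5 log2 units are not drawn. *Psrc1* and *Plk2* lie outside the 1.5-fold lines, with *Phlda3*, which did not pass the test.

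*Trp53* and its regulators were compared first. *Trp53* was at 78.2, 84.5, 62.9 and 97.0 CPM in S1 to S4 and at 82.5, 82.3, 90.2 and 82.9 CPM in S5 to S8. The 4 KO values lay inside the range of the WT values, whose lowest sample was S3. The log2 fold change was 0.07 (standard error, SE, 0.13, adjusted p = 0.818), and its 95% interval ran from -0.20 to 0.33.

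*Mdm2* encodes the ubiquitin ligase that marks p53 for degradation. It was at 99.7, 83.9, 87.5 and 85.0 CPM in S1 to S4 and at 116, 117, 103 and 106 CPM in S5 to S8. The lowest KO sample was just above the highest WT sample, S1 (p = 0.0286 in a two-sided exact permutation test, which cannot go lower with 4 samples against 4). The fold change of 1.24 (95% interval 1.07 to 1.44) had an edgeR adjusted p of 0.0605. It therefore passed neither threshold. Without S1 it came to 0.0326 and without S2 to 0.173, and DESeq2 gave 0.0359. *Mdm4*, the partner that masks the activation domain of p53, averaged 235 ± 18.0 CPM in WT TILs and 232 ± 23.1 CPM in KO TILs (± SD, n = 4 each, log2 fold change -0.01, edgeR adjusted p = 0.959).

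Among the cell cycle genes, *Cdkn1a* encodes p21, the inhibitor of cyclin-dependent kinases through which p53 stops the cycle. It was at 68.4, 74.9, 75.6 and 74.7 CPM in S1 to S4 and at 73.6, 108, 85.6 and 88.8 CPM in S5 to S8. The WT samples lay close together, 3 KO samples were above all of them, and S5 was not. The fold change was 1.21 (95% interval 1.02 to 1.44), with an edgeR adjusted p of 0.165. *Cdkn1b*, which encodes the related inhibitor p27, averaged 205 ± 7.60 CPM in WT TILs and 191 ± 19.2 CPM in KO TILs (± SD, n = 4 each, edgeR adjusted p = 0.564). *Ccng1*, which encodes cyclin G1, a p53 target that feeds back on MDM2, had a log2 fold change of 0.08, and without S1, its lowest WT sample, the sign was opposite, at -0.03.

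*Psrc1* (ENSMUSG00000068744, chromosome 3 of GRCm38 from 108383839 to 108388231) had the largest difference of the 34 genes. It was at 4.00, 4.62, 5.05 and 3.21 CPM in S1 to S4 and at 12.8, 13.1, 9.08 and 9.51 CPM in S5 to S8. The lowest KO value was well above the highest WT value, with S5 and S6 higher than S7 and S8. The log2 fold change was 1.39 (SE 0.28, edgeR adjusted p = 0.00343), or 2.63-fold with a 95% interval of 1.74 to 3.96. The gene was among the lowest of the set, with 39 to 271 counts per sample and 1.25 CPM per kilobase in WT TILs. Its call did not hold in every fit. Without S2, S4, S5 or S6 the adjusted p was between 0.0105 and 0.0137, and with the fold change itself tested against 1.5 by edgeR's glmTreat it was 0.0407, while the log2 fold change stayed between 1.28 and 1.48.

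*Plk2* (chromosome 13, 110395046 to 110400844) was the gene of the set that fell. It was at 63.8, 90.0, 91.4 and 100 CPM in S1 to S4 and at 68.9, 37.8, 40.9 and 45.7 CPM in S5 to S8. The groups overlapped through 1 sample of each, S1 at the bottom of WT and S5 at the top of KO. The log2 fold change was -0.84 (SE 0.18, edgeR adjusted p = 0.00524), whereas the two-sided exact permutation test over samples gave p = 0.0571. Without S5 the log2 fold change was -1.05 and the adjusted p 0.00026. Leaving out S2, S3, S4, S6, S7 or S8 brought the adjusted p to between 0.0143 and 0.0247, above the threshold. Myeloid markers were also lower in KO samples, summing to 556 to 1579 CPM in WT and 282 to 395 CPM in KO, and their part in the *Plk2* difference was not tested.

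The sequences just upstream of both called genes are shown because their starts carry different motifs. In 150 bases before a RefSeq start, *Psrc1* (chr3:108383654-108383803) holds a CCAAT box and *Plk2* (chr13:110394894-110395043) holds a cyclic AMP response element, TGACGTCA, which is its own reverse complement. Both lie on the plus strand, and the motif is in capitals.
Psrc1: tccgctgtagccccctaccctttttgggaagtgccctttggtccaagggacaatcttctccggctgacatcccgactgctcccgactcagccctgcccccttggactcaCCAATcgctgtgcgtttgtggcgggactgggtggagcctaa
Plk2: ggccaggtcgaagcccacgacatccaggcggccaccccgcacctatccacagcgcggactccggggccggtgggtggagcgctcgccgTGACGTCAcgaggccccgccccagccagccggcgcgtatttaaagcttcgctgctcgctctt

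On either strand, CCAAT was in 37.4% of all 32851 windows and in 18 of the 33 windows of the set. TGACGTCA was in 1.79% of all windows and in 2 of the 33, those of *Plk2* and *Brca2*. The p53 half-site consensus was in neither window of *Psrc1* nor in that of *Plk2*, which says only that these letters are not in these windows. Of the 8 genes with a half-site match, 0 passed both thresholds and 0 an adjusted p of 0.05 (4.9% and 11.3% of all genes). Their log2 fold changes ran from -0.55 (*Sesn1*) to 0.35 (*Polk*), with a median of 0.16. Of the 18 other tested genes with a window, 2 passed both thresholds and 4 an adjusted p of 0.05, with a median of 0.04.

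*Plk3*, which encodes another polo-like kinase of the stress response, was at 80.4, 68.6, 80.6 and 63.2 CPM in S1 to S4 and at 86.0, 84.9, 87.1 and 109 CPM in S5 to S8. The lowest KO value exceeded the highest WT value, and S8 stood apart from the other KO samples. The fold change of 1.26 (95% interval 1.05 to 1.501) had an edgeR adjusted p of 0.098, so it did not pass, and *Plk2* and *Plk3* had estimates of opposite sign.

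**Figure D3:**
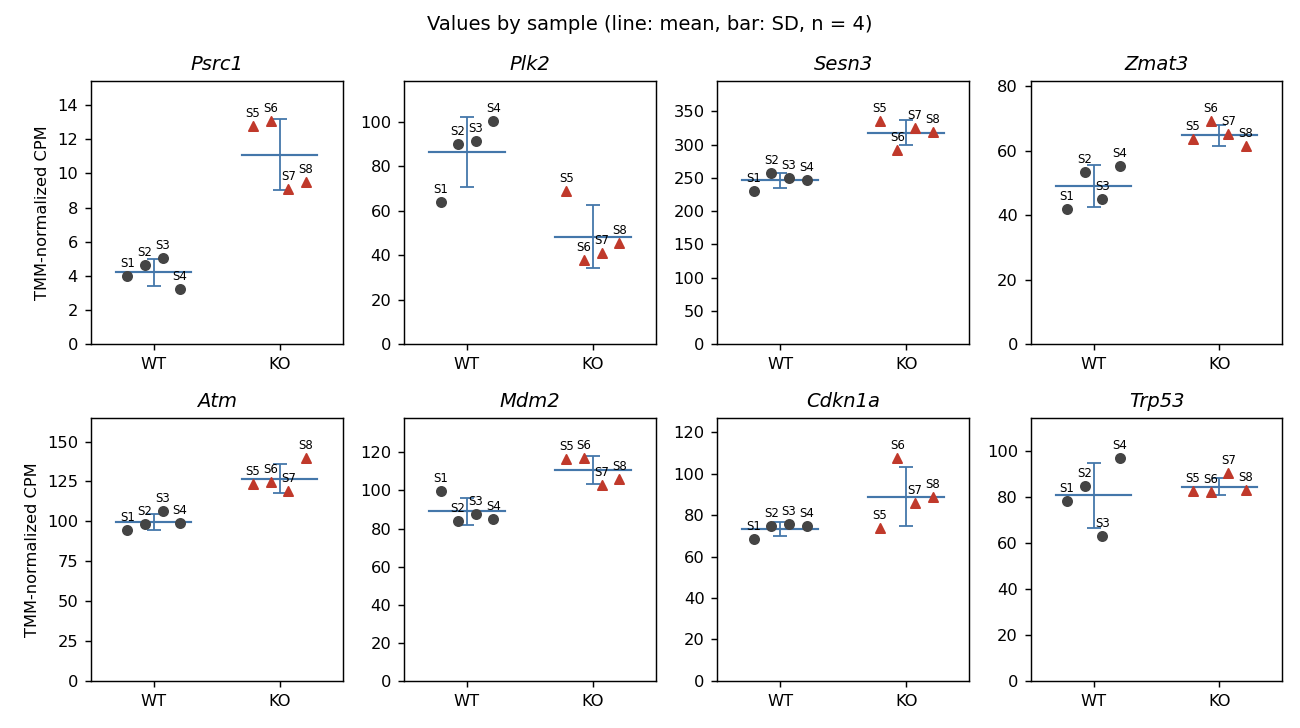
TMM-normalized CPM of 8 genes in the 4 WT (circles) and 4 KO (triangles) samples, with the group mean (line) and SD (bar) and every axis starting at 0. *Psrc1*, *Sesn3*, *Zmat3*, *Atm* and *Mdm2* do not overlap between groups, *Plk2* overlaps through S1 and S5, and the KO values of *Trp53* lie within those of WT.

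The stress and growth control targets held 2 of the 5 genes that passed an adjusted p of 0.05. *Sesn3* encodes sestrin 3, one of 3 stress-induced proteins that restrain the growth kinase complex mTORC1, and is also a known target of FOXO transcription factors. It was at 229, 258, 250 and 247 CPM in S1 to S4 and at 335, 291, 325 and 319 CPM in S5 to S8. The groups were well apart, with S6 the lowest KO sample. The log2 fold change was 0.37 (SE 0.09, edgeR adjusted p = 0.0123), or 1.29-fold with a 95% interval of 1.13 to 1.47, and the adjusted p stayed between 0.0144 and 0.038 with any one sample left out.

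The other sestrin genes did not pass. *Sesn1* was at 23.3, 15.7, 22.9 and 17.3 CPM in S1 to S4 and at 16.9, 11.8, 11.2 and 14.0 CPM in S5 to S8. Its estimate was negative, with a log2 fold change of -0.55 (SE 0.21, edgeR adjusted p = 0.101), and the groups overlapped through S2 and S5. *Sesn2* averaged 14.9 ± 3.77 CPM in WT TILs and 15.4 ± 4.94 CPM in KO TILs (± SD, n = 4 each), where S8, at 22.8 CPM, lay far above the other 3. In WT TILs *Sesn3* had 16.1 CPM per kilobase of exon, against 4.96 for *Sesn1* and 4.28 for *Sesn2*, so it was the most abundant sestrin gene on this scale.

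*Zmat3* encodes an RNA-binding zinc finger protein that is a well-known p53 target. It was at 41.9, 53.5, 45.1 and 55.4 CPM in S1 to S4 and at 63.5, 69.2, 65.1 and 61.5 CPM in S5 to S8. The groups did not overlap, and KO exceeded WT by 1.32-fold on average (95% interval 1.10 to 1.59, edgeR adjusted p = 0.0456). This call was fragile. It was kept without S4 and lost when any other sample was dropped (up to 0.118), and it was lost with upper quartile factors (0.0571) and with library size alone (0.0836). *Trp53inp1*, which encodes an autophagy- and death-linked p53 target, averaged 134 ± 13.4 CPM in WT TILs and 169 ± 34.97 CPM in KO TILs (± SD, n = 4 each), with S8 the highest at 219 CPM (edgeR adjusted p = 0.108).

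Of the death-linked targets, 6 were tested and 0 passed at either threshold with edgeR or with DESeq2 (0 had an unadjusted p under 0.05). Over all genes, 4.9% passed both thresholds and 11.3% an adjusted p of 0.05 with edgeR, and 2229 of 15378 passed the latter with DESeq2. An unadjusted p under 0.05 was found in 3774 of all 15378 genes. With so few targets, a count of 0 does not set them apart from all genes. *Phlda3*, which encodes a repressor of AKT signaling, was at 0.754, 2.88, 4.23 and 2.47 CPM in S1 to S4 and at 4.59, 4.35, 3.17 and 5.12 CPM in S5 to S8. Its estimate of 1.68-fold had a 95% interval of 0.81 to 3.47 (edgeR adjusted p = 0.394), and the groups overlapped through S3 and S7. *Tnfrsf10b*, which encodes the mouse receptor for the death ligand TRAIL, spread more among KO samples than between groups, from 1.08 CPM in S7 to 15.5 CPM in S6, and without S6 the sign of its log2 fold change turned from 0.45 to -0.13. *Aen* (a nuclease), *Ei24* (a membrane protein of the endoplasmic reticulum), *Perp* (a membrane protein of cell junctions) and *Pidd1* (the scaffold that activates caspase 2) had log2 fold changes of 0.24, 0.06, -0.31 and 0.22, their adjusted p lying between 0.413 and 0.862.

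Of the 4 repair and nucleotide supply targets, 0 passed with edgeR or DESeq2. At an adjusted p of 0.05, 11.3% of all genes passed with edgeR and 2229 of 15378 with DESeq2. An unadjusted p under 0.05 was found in 3774 of all 15378 genes and in 1 of the 4, *Polk*. It encodes a DNA polymerase that copies past damaged bases and was at 46.6, 40.0, 53.2 and 48.0 CPM in S1 to S4 and at 61.2, 64.9, 51.9 and 61.3 CPM in S5 to S8. The groups overlapped only through S3 and S7, and the fold change was 1.28 (95% interval 1.06 to 1.54, edgeR adjusted p = 0.092). *Rrm2b*, the p53-induced subunit of ribonucleotide reductase, and the damage recognition genes *Ddb2* and *Xpc* had log2 fold changes of 0.22, -0.06 and -0.07. The exons of *Ddb2* share 652 bases with *Acp2* on the opposite strand, and whether counting used strand is not given in the sources used here, so the level of *Ddb2* is uncertain.

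Among the damage kinases, *Atm* encodes the kinase that answers DNA double-strand breaks. It was at 94.7, 98.5, 106 and 98.8 CPM in S1 to S4 and at 124, 125, 119 and 140 CPM in S5 to S8. The groups did not overlap, and S8 was the highest. The fold change was 1.27 (95% interval 1.10 to 1.47, edgeR adjusted p = 0.0279), and the call at 0.05 was kept without S3, S5 or S7 only. It was lost when S1, S2, S4, S6 or S8 was dropped (up to 0.0842), with library size alone (0.0593) and with offsets for GC content (0.0675).

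*Atr*, which encodes the kinase that answers stalled replication, was at 92.6, 85.1, 89.2 and 91.0 CPM in S1 to S4 and at 96.8, 81.0, 78.9 and 67.6 CPM in S5 to S8. The KO samples spread around the WT samples, and the fold change of 0.91 (95% interval 0.76 to 1.07, edgeR adjusted p = 0.504) had an interval within 1.5-fold in either direction. *Chek1*, the kinase gene downstream of ATR, averaged 16.7 ± 5.72 CPM in WT TILs and 14.7 ± 2.00 CPM in KO TILs (± SD, n = 4 each). *Chek2*, the kinase gene downstream of ATM, averaged 5.82 ± 2.65 CPM in WT TILs and 5.87 ± 2.99 CPM in KO TILs (± SD, n = 4 each), with a 95% interval of the fold from 0.52 to 1.95.

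Of the 6 genes of break sensing and repair, 0 passed an adjusted p of 0.05 with edgeR or DESeq2, and 0 had an unadjusted p under 0.05. Over all genes, 11.3% passed an adjusted p of 0.05 with edgeR and 2229 of 15378 with DESeq2. An unadjusted p under 0.05 was found in 3774 of the 15378 with edgeR. In so small a list, a count of 0 does not set the genes apart from all genes. *Brca1* and *Brca2*, whose products repair breaks by homologous recombination, had log2 fold changes of 0.19 and -0.25. *Xrcc5* and *Xrcc6*, which encode the Ku80 and Ku70 subunits that bind broken ends, had 0.10 and -0.26. *Parp1*, which encodes the sensor enzyme of DNA nicks, averaged 50.4 ± 6.60 CPM in WT TILs and 42.0 ± 4.88 CPM in KO TILs (± SD, n = 4 each, edgeR adjusted p = 0.265). *H2afx*, the gene of the histone variant that is phosphorylated around breaks, ranged from 24.7 to 54.2 CPM in WT and from 24.04 to 47.0 CPM in KO TILs. *Xrcc6* shares 344 exonic bases with *Desi1* on the opposite strand, a gene with 226% as many counts, so its level is uncertain as well.

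**Figure D4:**
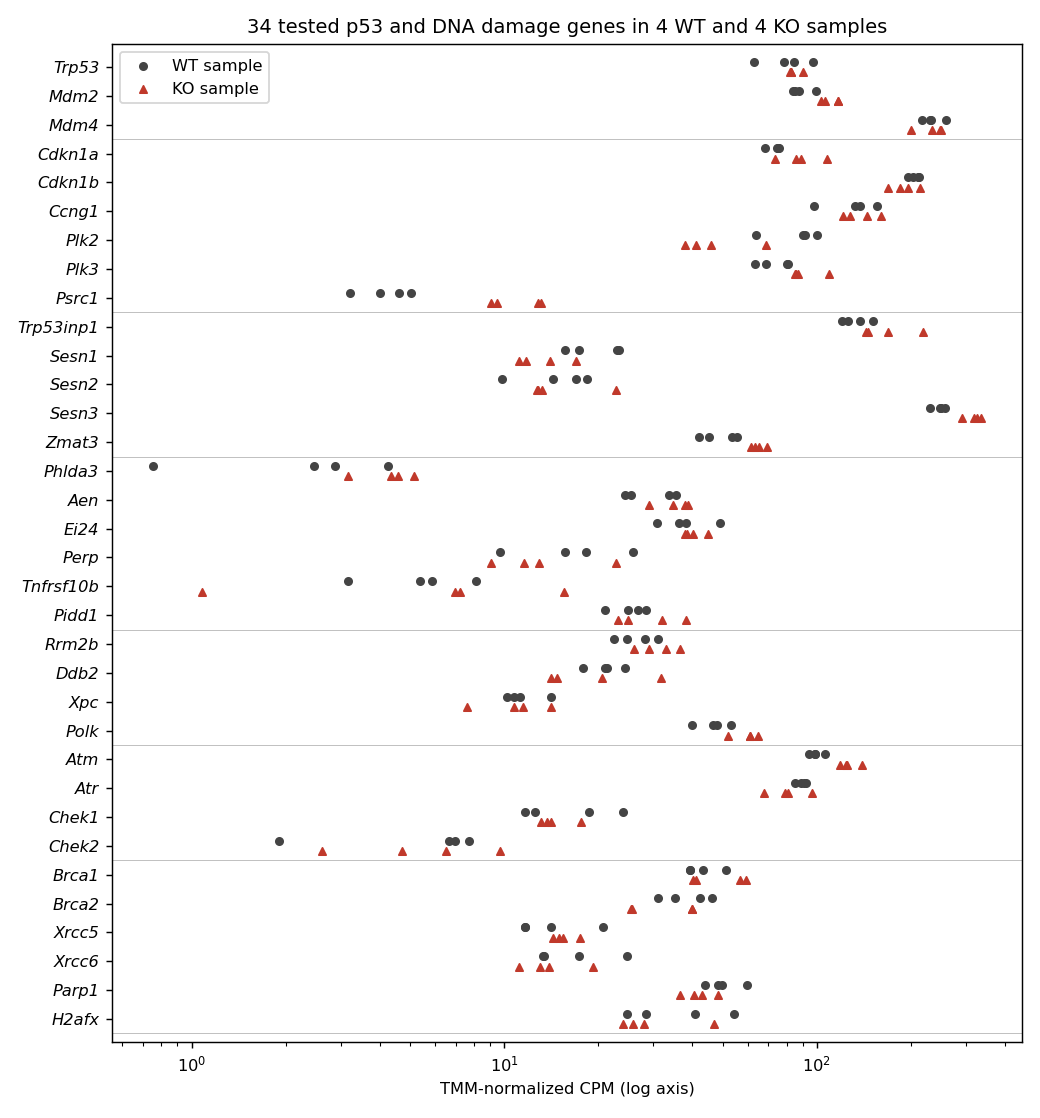
TMM-normalized CPM (log axis) of the 34 tested genes in each WT (circle) and KO (triangle) sample, ordered by role between gray lines. Levels run from under 1 CPM for *Phlda3* in S1 to 335 CPM for *Sesn3* in S5, and most genes overlap between groups.

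Per kilobase of exon, the most abundant genes of the set in WT TILs were *Cdkn1b* at 45.1, *Ccng1* at 37.3, *Plk3* at 28.9 and *H2afx* at 26.7 CPM per kilobase. *Cdkn1a*, *Trp53inp1* and *Trp53* followed at 20.7, 20.6 and 19.9 CPM per kilobase, levels closer together than the spread between their samples. At the other end were *Phlda3*, *Psrc1* and *Tnfrsf10b*, at 1.66, 1.25 and 1.03 CPM per kilobase, and *Eda2r* at 0.

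Other genes of the same pathways were taken from lists of 92 genes, of which 90 were tested. At both thresholds 2 were higher and 1 was lower (2.91% and 1.99% of all genes), all of them among the 28 tested p53 targets, and the median log2 fold change over the 90 was -0.06. *Fas*, the death receptor gene, rose from a WT mean of 14.1 ± 0.85 CPM to a KO mean of 32.2 ± 4.17 CPM (± SD, n = 4 each), 1.19 on the log2 scale (SE 0.16, edgeR adjusted p = 0.000122). *Trp53i11*, a p53-inducible membrane protein gene, rose from 48.8 ± 9.46 to 88.4 ± 6.15 CPM (SD, n = 4 each). *Abhd4*, a lipase-like gene, fell from 17.2 ± 3.93 to 7.94 ± 2.54 CPM (SD, n = 4 each).

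At an adjusted p under 0.05, 6 of these 28 p53 targets were higher and 1 was lower (6.31% and 4.98% of all genes), and their median log2 fold change was 0.17. The 4 not yet named, which were chosen after their values were seen, were *Pmaip1* and *Epha2*, which encode the BH3-only death protein NOXA and an ephrin receptor, *Tigar*, a regulator of glycolysis, and *Ptprv*, a phosphatase gene. Their log2 fold changes were 0.52, 2.58, 0.68 and 0.86, and the groups overlapped in *Epha2*. *Bax*, *Btg2* and *Gadd45a*, other widely used p53 targets chosen in the same way, had log2 fold changes of -0.20, 0.03 and -0.24 and did not pass.

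The remaining lists are set beside the 11.3% of all genes that passed an adjusted p of 0.05 with edgeR, and the 2229 of 15378 with DESeq2. Of 19 tested genes of damage signaling, 0 passed an adjusted p of 0.05 with edgeR or with DESeq2 (3 had an unadjusted p under 0.05), and the list had a median log2 fold change of -0.07. Of 23 break repair genes, 1 was lower, *Palb2*, the partner of BRCA2, with a log2 fold change of -0.81 (edgeR adjusted p = 0.0326). Of 20 genes of excision and mismatch repair, 1 was higher and 1 was lower. These were *Ercc6*, a transcription-coupled repair gene, and *Apex1*, a base excision repair gene, with log2 fold changes of 0.54 and -0.74. The names in these lists were likewise given after their values were seen.

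Checkpoint and repair genes are cell cycle-linked, so proliferation markers are given beside them. Of 20 proliferation markers, 0 were higher and 2 were lower in KO TILs at an adjusted p under 0.05 (6.31% and 4.98% of all genes). The 2 were *Mcm2* and *Mcm4* (named after their values were seen). A negative log2 fold change was found in 17 of the 20, with a median of -0.16, and in 7899 of all 15378 genes. The summed level of the 20 markers was 2026 to 2647 CPM in WT and 1679 to 2192 CPM in KO TILs, ranges that overlap. The part of proliferation in the values of *Brca1*, *Brca2*, *Chek1* and *H2afx* was not tested.

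The targeted gene, *Kdm1a*, counted over all its exons, averaged 44.8 ± 1.88 CPM in WT TILs and 30.6 ± 4.02 CPM in KO TILs (± SD, n = 4 each), with all KO samples below all WT samples (edgeR adjusted p = 0.0163). Total counts were 11657807 to 19007676 for WT samples, against 11858010 to 30295406 for KO samples, the deepest being S8. The 10 CD8 T cell markers summed to 5734 to 6166 CPM in the 4 WT samples, against 5510 to 6148 CPM in the 4 KO samples. Of the 10, 2 passed both thresholds, both higher in KO (2.91% of all genes). At an adjusted p under 0.05, 1 was lower (4.98% of all genes). Their log2 fold changes ran from -0.393 to 0.858, so the similar sums do not mean that each marker was unchanged. Of the 17 myeloid markers, 13 passed both thresholds, all lower in KO, and none was at 0 in all samples, with a summed level of 556 to 1579 CPM in WT, the highest in S3, and 282 to 395 CPM in KO samples. Markers of other lymphocytes summed to 3.42 to 9.57 CPM in the 4 WT samples, against 13.9 to 32.8 CPM in the 4 KO samples. Tumor and stroma markers summed to 21.4 to 32.5 CPM in WT and 59.1 to 79.4 CPM in KO samples, with *Krt8* and *Krt19* at 0. Only 2 of these 10 markers passed the filter, and most of the sum was *Pecam1*. The sum therefore rests largely on 1 gene and is no measure of tumor or stroma RNA as such. Erythroid markers summed to 2.88 to 10.2 CPM in WT and 0 to 0.917 CPM in KO samples. In such bulk samples, fewer cells of a type and less RNA per cell cannot be told apart. Without S3, the log2 fold changes of *Plk2* and *Psrc1* were -0.81 and 1.48, with edgeR adjusted p of 0.0183 and 0.00622. *Plk2* thus lost its call. The myeloid sums of S1, S2 and S4, at 556, 665 and 894 CPM, were still above those of all KO samples. Leaving out S3 therefore does not separate myeloid RNA from genotype, and the part of myeloid RNA in both values was not tested.

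**Figure D5:**
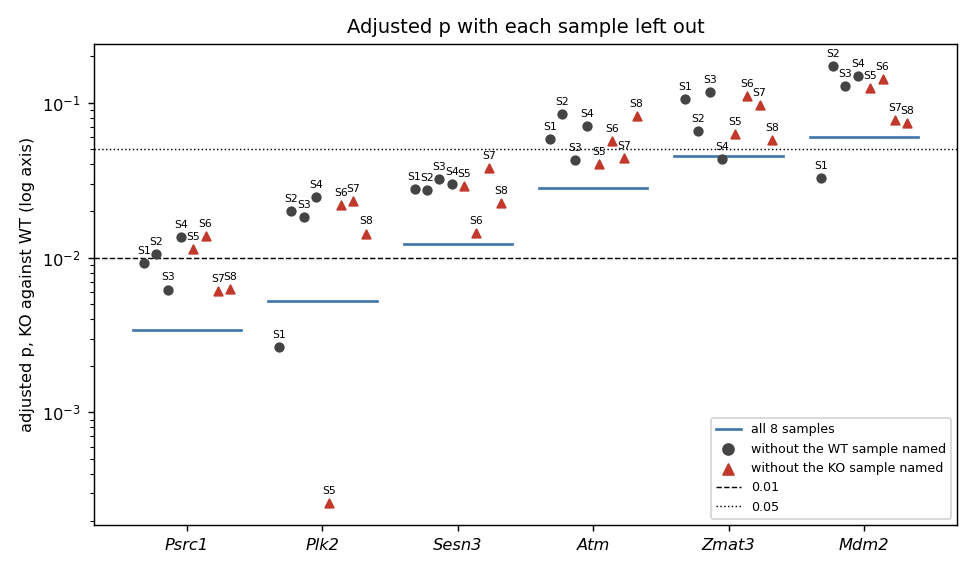
Adjusted p (log axis) of 6 genes from edgeR's quasi-likelihood test with all 8 samples (line) and with each WT (circle) or KO (triangle) sample left out, with 0.01 (dashed) and 0.05 (dotted) marked. *Psrc1* and *Plk2* stay under 0.05 in all 8 fits but cross 0.01 in some, *Sesn3* stays between the lines, and *Atm*, *Zmat3* and *Mdm2* fall on both sides of 0.05.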

How the data were processed

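Directional RNA libraries were made from sorted CD8+CD44+PD-1+ TILs after removal of ribosomal RNA. STAR alignment to GRCm38 and featureCounts on GENCODE genes, both run by the authors, gave the deposited raw counts per gene and sample, which were neither normalized nor pooled. The authors' own testing used DESeq2 with a correction for GC content. A column's group, WT or KO, was taken from the sample names in the principal component plot of the paper, and no column was tied to a replicate number.

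Here, counts were filtered with filterByExpr, scaled with TMM factors (0.94 to 1.05) and tested with edgeR 4.0.16 (glmQLFit, glmQLFTest) in R 4.3.3, without covariates, over 15378 genes. A standard error is the size of the log2 fold change divided by the root of F, and 95% intervals use the t distribution with the fit's degrees of freedom. Single genes were also compared by exact two-sided permutation of the samples (log2 CPM, prior count 2). No pair of samples within a group agreed within sampling noise. On 3 data sets of 15378 genes simulated with the means and dispersions of these samples, each with 200 changed genes, 38% of genes changed 1.7-fold, 70% changed 2-fold, 85.3% changed 3-fold and 88% changed 4-fold were called, with 0 to 2 false calls per set. The changed genes were drawn only from genes with a mean log2 CPM above 2, so these rates do not cover genes below that level. GENCODE M21 on GRCm38 gave positions and exon lengths (55154 of 55335 IDs matched), and RefSeq (GRCm38.p6) the promoter windows. Motifs were searched on both strands.

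The genes and lists were chosen with earlier results of these data known. By rule, all 35 genes are named, and of the other pathway lists those passing both thresholds, at most 4 per direction. Other genes of these lists were named after their values were seen, as stated beside them. Alternatives were other scaling factors, other filters, DESeq2 1.42.0, GC content offsets from a smooth fit (mgcv 1.9.3, GC known for 99.9% of genes tested), an adjusted p of 0.05, glmTreat and leaving out each sample.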

Additional observations from a re-analysis of the deposited data

Results flagged for a closer look

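In 5 of 68 groups of 4 samples (34 genes in WT and in KO TILs), 1 sample stood apart from the other 3, where chance gives about 1 in 20, or 3.4 groups. For each, its distance to the closest of the 3, divided by the range of all 4, is given on log2 CPM. S8 was highest of the KO samples in *Sesn2* (0.943), at 4.52 against 3.69 to 3.73, and in *Plk3* (0.898), at 6.77 against 6.41 to 6.45. S7 was highest of the KO samples in *Trp53* (0.909), at 6.5 against 6.36 to 6.38. S1 was lowest of the WT samples in *Cdkn1a* (0.884), at 6.10 against 6.23 to 6.24, and S2 was lowest in *Chek2* (0.893), at 1.02 against 2.76 to 2.97. Without S8, the log2 fold change of *Sesn2* was -0.20 in place of 0.06, and without S2 that of *Chek2* was -0.29 in place of 0.01. Neither gene passed the test with or without these samples.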

How the results depend on the processing

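The calls of *Psrc1* and *Plk2* kept their direction and passed both thresholds under the other scaling factors, the other filters, DESeq2's Wald test and GC content offsets. With the fold change tested against 1.5 by glmTreat, 0 genes of the set were called higher and 0 lower (165 and 130 over all genes). With any single sample left out, 0 to 1 were called higher and 0 to 1 lower, and over all genes 347 to 452 and 199 to 303. At an adjusted p under 0.05 alone, 2 were higher with library size alone, 2 to 3 with a sample left out, 5 without the filter (adding *Trp53inp1*) and 5 with DESeq2 (adding *Mdm2*), against 4. With DESeq2, 6 of the 34 passed this rule in either direction, and 2229 of all 15378 genes did. For the other settings, all genes passing this rule were not counted. At both thresholds, 642 of all genes were called higher and 531 lower without the filter, and 617 and 461 with DESeq2. At an adjusted p under 0.05 with the fold threshold, 695 of all genes were higher and 551 lower. Apart from the stricter or looser rules themselves, the cause was not tested. Of 544 recomputed values of single genes, 511 kept their direction and their status as called or not under the joint thresholds, 12 (*Psrc1* and *Plk2*) lost the call and 21 changed sign, all in 11 genes that passed no threshold. The log2 fold change of *Chek2* was -0.00805 with upper quartile factors, -0.00516 with library size alone and -0.0142 with GC content offsets. The other 18 came from leaving out a sample, where log2 fold changes ran from -0.0363 to 0.164 for *Trp53*, -0.0525 to 0.0539 for *Mdm4*, -0.0348 to 0.174 for *Ccng1*, -0.20 to 0.178 for *Sesn2*, -0.0328 to 0.20 for *Ei24*, -0.129 to 0.808 for *Tnfrsf10b*, -0.35 to 0.0788 for *Ddb2*, -0.212 to 0.0712 for *Xpc*, -0.334 to 0.0295 for *Chek1*, -0.333 to 0.259 for *Chek2* and -0.511 to 0.00434 for *H2afx*. No paired analysis was possible because the columns carry no replicate numbers. *Phlda3*, *Chek2*, *Tnfrsf10b* and *Psrc1* rest on 456 to 992 counts over the 8 samples.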
